A study of Mus musculus with 2 samples.

Results

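The genes described here are 8 transcription factor genes that lay down and keep pancreatic and gut epithelial identity: Gata6, Hnf4a, Foxa1, Foxa2, Pdx1, Sox9, Onecut2 and Klf5. They were taken by symbol from a deposited table of 55468 genes, and each symbol matched 1 row. The table holds 1 library of KPC2 wild type cells, which received no drug, and 1 library of KPC2 cells kept long-term in 260 ng/mL gemcitabine, a deoxycytidine analogue used against pancreatic cancer. Both were grown in the same DMEM-based medium with serum. KPC2 is a mouse pancreatic cancer line. KPC lines commonly come from mice in which Cre recombinase under a Pdx1 promoter acts in the pancreas, but the labels do not give the alleles of KPC2 and do not say whether the resistant cells are 1 clone. With 1 library per group no test between the conditions can be made. Because the drug was present in 1 culture alone, direct effects of gemcitabine and stable traits of the resistant cells cannot be told apart.

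As background, the pancreas forms from the foregut endoderm, where the forkhead proteins FOXA1 and FOXA2 and the zinc finger protein GATA6 open chromatin at endodermal genes. PDX1, SOX9 and the ONECUT proteins then mark pancreatic progenitors. PDX1 is later strongest in beta cells and SOX9 stays on in duct cells. HNF4A, a nuclear receptor of liver, gut and pancreas, and KLF5, a Kruppel-like factor of proliferating gut epithelium, are active in pancreatic cancers of the glandular, classical type, together with GATA6.

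Levels are given in FPKM, fragments per kilobase of transcript, scaled to library size, the unit in which the deposited values were read. FPKM corrects for transcript length, so levels of different genes can be set side by side. Genes that reached 1 FPKM in either library are called measured, and 12193 symbols did. The spacing of low values gave the worth of 1 fragment, so that on a 2 kb transcript 1 FPKM stood for about 43.5 wild type fragments or 42.0 resistant ones. The 95% intervals below come from such fragment numbers. They cover counting error only, not the spread between cultures, and for genes with several transcripts they are approximate because the longest coding transcript was used.

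Of the 8 factor genes, 7 were measured, and Foxa1 stayed under 1 FPKM in both libraries. In the resistant library 6 of the 8 stood lower and 2 stood higher than in the wild type. Sox9, Onecut2, Pdx1, Hnf4a, Gata6 and Foxa1 were the lower ones, and Klf5 and Foxa2 the higher ones. On the log2((resistant FPKM + 1)/(wild type FPKM + 1)) scale, used for every log2 ratio below, 2 of the 7 measured factor genes were at least 2-fold lower, Sox9 and Onecut2, where 8.37% of all measured genes were. None of the 7 was at least 2-fold higher, where 7.90% of all measured genes were. The other 5 lay within 2-fold. The median log2 ratio of the 7 was -0.75, beside 0.02 for all measured genes, of which 49.2% had a ratio below 0. The counting interval of the resistant to wild type ratio lay below 1 for all 6 lower genes and above 1 for both higher ones.

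**Figure D1:**
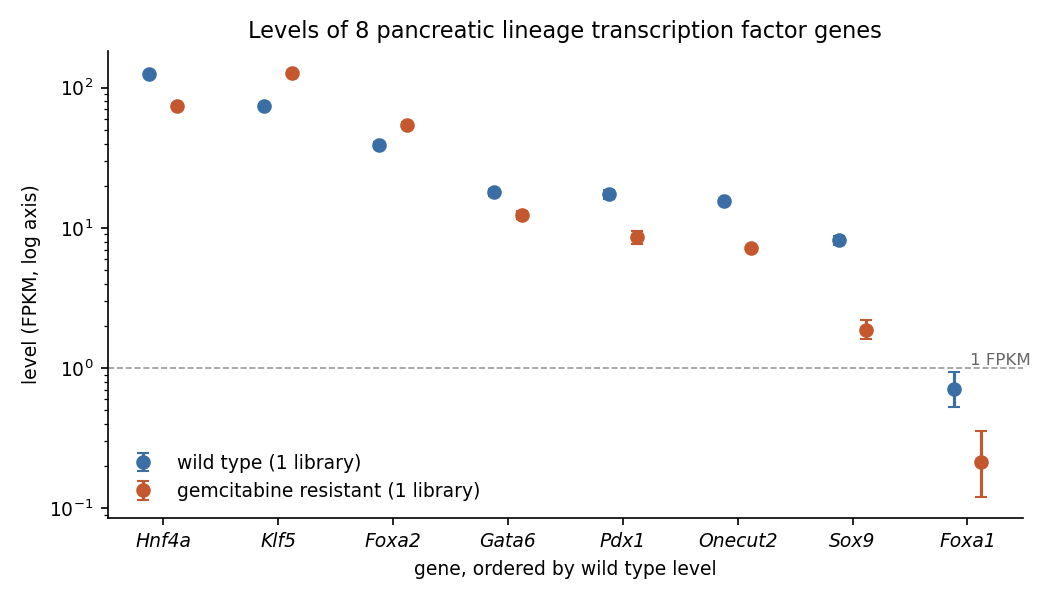
Level of each of the 8 factor genes in FPKM on a log axis, with genes along the horizontal axis ordered by wild type level, 1 point per library and bars for the 95% counting interval. Hnf4a is highest in the wild type library at 125 FPKM and Klf5 in the resistant one at 127 FPKM, and Foxa1 lies under the dashed line at 1 FPKM in both.

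The order of the 8 levels was nearly shared by the libraries. In the wild type it ran from Hnf4a through Klf5, Foxa2, Gata6, Pdx1, Onecut2 and Sox9 to Foxa1. In the resistant library Klf5 and Hnf4a had changed places and the other 6 kept theirs. Klf5 stood at 0.587 times the level of Hnf4a in the wild type and at 1.71 times in the resistant library. Of neighbours in the order, Gata6 and Pdx1 in the wild type library had overlapping counting intervals (17.0 to 18.9 and 16.2 to 18.6 FPKM). The summed level of the 8 genes was 298 FPKM in wild type cells and 286 FPKM in resistant cells. In FPKM as deposited, the 2 higher genes thus nearly made up for the 6 lower ones. The library totals differed, however, with 1197279 FPKM for resistant cells against 998508 FPKM for wild type cells. As a share of its library, the 8-gene sum was therefore smaller in resistant cells, and the near balance depends on the scaling.

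**Figure D2:**
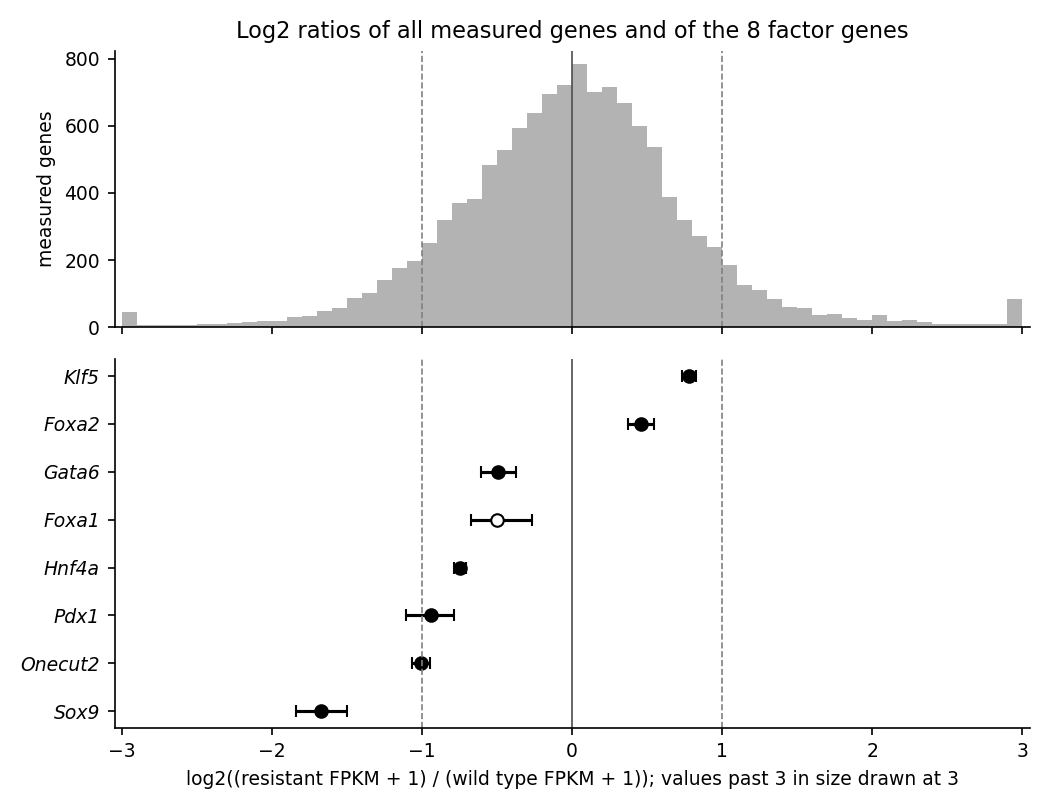
Upper panel, number of measured genes by log2 ratio of resistant to wild type (horizontal axis, log2(FPKM + 1) scale). Lower panel, the 8 factor genes on the same axis with 95% counting intervals, the open circle marking Foxa1, which is under the level filter. Sox9 at -1.67 and Onecut2 at -1.01 lie past the dashed 2-fold line, and Pdx1 at -0.94 lies just inside it.

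Among the endodermal factors, Foxa2 stood at 39.2 FPKM in wild type cells and 54.3 FPKM in resistant cells. The resistant to wild type ratio was 1.39 (counting interval 1.30 to 1.47) and the log2 ratio 0.46, the 76.0 percentile of all measured genes. Foxa2 was therefore higher in resistant cells by less than 2-fold. Foxa1, its close relative with a largely shared DNA-binding domain, stood at 0.71 FPKM in the wild type, about 51 fragments, and at 0.21 FPKM in resistant cells, about 15 fragments. As plain FPKM that is a ratio of 0.298 (0.159 to 0.551), but the log2 ratio of -0.50 shrinks it because the level is low. Foxa2 was thus the main FOXA gene of both libraries, at 54.8 times the level of Foxa1 in the wild type and 255 times in the resistant library. Foxa3, the third FOXA gene, stood at 4.69 against 3.88 FPKM in wild type and resistant cells. The counting interval of its ratio, 0.669 to 1.02, included 1.

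Gata6, a marker of the classical subtype of pancreatic cancer, stood at 17.9 FPKM in wild type cells and 12.5 FPKM in resistant cells. The ratio was 0.695 (0.637 to 0.758) and the log2 ratio -0.49, the 23.6 percentile of measured genes. The GATA family held a larger difference in Gata5, a factor of heart and gut endoderm, at 20.5 FPKM in wild type against 2.18 FPKM in resistant cells (log2 ratio -2.76). Gata4, a factor of stomach, liver and early pancreas, stood at 18.7 and 20.2 FPKM. The 3 GATA genes of endoderm were thus close to each other in the wild type, between 17.9 and 20.5 FPKM, whereas in the resistant library Gata4 stood highest and Gata5 lowest of them. Gata3, known from T cells and skin and breast epithelium, stood at 0.61 against 2.17 FPKM.

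Pdx1 stood at 17.4 FPKM in the wild type, about 821 fragments, and at 8.56 FPKM in resistant cells, about 390 fragments. The ratio of plain FPKM was 0.492 (0.435 to 0.555), and the log2 ratio of -0.94 fell short of the 2-fold line. Pdx1 passed that line when the pseudocount was 0.1 and when the resistant library was scaled to the same upper quartile, with log2 ratios of -1.01 and -1.02. Cdx2, the intestinal factor that lies beside Pdx1 in the ParaHox cluster, went the other way, at 2.84 FPKM in wild type cells and 7.73 FPKM in resistant cells (log2 ratio 1.19). Pdx1 was at 6.13 times the level of Cdx2 in the wild type and at 1.11 times in the resistant library. The genes lie on opposite strands of chromosome 5, 25.0 kb apart.

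Sox9, which marks progenitors and ducts, had the lowest ratio of the 8. It stood at 8.19 FPKM in the wild type, about 771 fragments, and at 1.88 FPKM in resistant cells, about 171 fragments. The ratio was 0.230 (0.194 to 0.272) and the log2 ratio -1.67, the 1.8 percentile of measured genes. Of 19 SOX genes 4 were measured, and 11 had a listed value of 0 in both. Sox4, a widely expressed SOX gene of progenitor cells, stood at 29.7 against 18.3 FPKM in wild type and resistant cells, and Sox13 at 13.0 against 8.82 FPKM. Sox6, which works with SOX9 in cartilage, was opposite to Sox9, at 0.062 FPKM in the wild type, about 13 fragments, and 9.60 FPKM in the resistant library, about 1865 fragments (log2 ratio 3.32). In the wild type library Sox4 was the highest SOX gene and Sox9 the lowest of the 3 above 1 FPKM. In the resistant library Sox6 stood above Sox9 and, by value, above Sox13. There the counting intervals of Sox6 and Sox13 overlapped (9.17 to 10.0 and 8.19 to 9.50 FPKM). Of 9 genes that SOX9 drives in cartilage, Acan, which encodes aggrecan, was the only one measured, at 20.8 FPKM in wild type and 27.4 FPKM in resistant cells.

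Onecut2, which encodes a cut-homeodomain factor of liver, pancreas and gut, stood at 15.5 FPKM in wild type cells and 7.20 FPKM in resistant cells. The ratio of plain FPKM was 0.465 (0.444 to 0.487) and the log2 ratio of -1.01 only just passed the 2-fold line. On the log2 scale its counting interval, -1.07 to -0.95, included that line. Its relative Onecut3 was lower too, at 3.10 against 0.89 FPKM (log2 ratio -1.12). Onecut1, also called HNF6 and the ONECUT gene best known from pancreatic ducts, was at or near 0 in both libraries. Both measured ONECUT genes therefore passed the 2-fold line downwards, and they kept to that side under both rescalings of the libraries. The counting interval of Onecut3 on the log2 scale, -1.30 to -0.94, included the line as well.

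Hnf4a stood at 125 FPKM in the wild type, the 94.8 percentile of levels among measured genes, and at 74.3 FPKM in the resistant library, the 89.7 percentile. The ratio was 0.593 (0.576 to 0.611) and the log2 ratio -0.75. It was by far the main HNF4 gene, since Hnf4g stood at 0.081 and 0.10 FPKM.

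Hnf4a is known for a pair of promoters, one used in liver and an upstream one used in pancreas. The table gives 1 value per gene and does not separate their transcripts. The bases ahead of both RefSeq starts of Hnf4a, and ahead of the outermost RefSeq start of Foxa2, are printed here as examples from a factor gene that was lower and from one that was higher. They were chosen, among windows of 4 factor genes, after their motif matches were seen. They come from RefSeq on build GRCm38.p6, written 5′ to 3′ in the direction of the gene and without UTR bases. Capitals mark matches, on either strand, to short motifs of the factor families themselves.
Hnf4a, upstream start, chr2:163506607-163506807, plus strand: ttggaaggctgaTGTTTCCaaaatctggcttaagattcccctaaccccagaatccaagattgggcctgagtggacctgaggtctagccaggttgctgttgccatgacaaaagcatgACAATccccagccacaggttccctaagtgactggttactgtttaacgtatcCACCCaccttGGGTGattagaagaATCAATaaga
Hnf4a, downstream start, chr2:163546905-163547154, plus strand: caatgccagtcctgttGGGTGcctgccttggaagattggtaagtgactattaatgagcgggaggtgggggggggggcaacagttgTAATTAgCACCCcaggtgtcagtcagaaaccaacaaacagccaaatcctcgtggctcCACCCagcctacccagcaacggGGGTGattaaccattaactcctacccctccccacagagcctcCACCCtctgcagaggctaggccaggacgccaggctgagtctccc
Foxa2, outermost start, chr2:148046970-148047219, minus strand: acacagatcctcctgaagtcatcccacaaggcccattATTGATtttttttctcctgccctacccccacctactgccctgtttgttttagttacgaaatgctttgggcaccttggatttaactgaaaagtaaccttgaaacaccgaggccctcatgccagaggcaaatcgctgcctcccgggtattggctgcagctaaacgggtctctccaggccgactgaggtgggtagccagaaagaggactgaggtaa

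The motifs searched on both strands were ATTGAT for ONECUT, CAAAGT for HNF4, TAATTA for homeodomains, TGTTTNC for FOXA, GATAA for GATA, ACAAT for SOX and CACCC for KLF factors. Windows of 250 bases ahead of a RefSeq start were searched, and 4 of the 8 genes had such windows, Foxa1, Foxa2, Hnf4a and Pdx1. The ONECUT letters were found ahead of the upstream start of Hnf4a, 59 bases before it, and ahead of the outermost start of Foxa2, 213 bases before it. They occur in 6.72% of 32851 RefSeq windows of that length. The same window of Hnf4a also held FOXA letters at 238 bases, SOX letters at 134 bases (27.7% of windows) and KLF letters at 83 and 73 bases. Ahead of the downstream start of Hnf4a, homeodomain letters stood at 165 bases before the start (4.84% of windows), and the other marked matches were KLF letters. No printed matches overlap. The window of Pdx1 held the KLF letters alone, which 52.0% of windows hold. The other windows of Foxa2 are not printed. One held KLF letters alone, and the other held GATA letters at 182 bases (22.6% of windows), HNF4 letters at 172 bases (12.6% of windows) and KLF letters. The window of Foxa1 held KLF letters at 199 bases, and FOXA letters at 141 bases (17.8% of windows) that overlap HNF4 letters at 136 bases. Ahead of the upstream start of Hnf4a, GATA letters and a further KLF match fell in UTR bases that are not printed. Such matches are letters in a window and show no binding.

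Klf5 was the highest of the 8 in resistant cells, at 127 FPKM, against 73.6 FPKM in the wild type. The ratio was 1.72 (1.67 to 1.78) and the log2 ratio 0.78, the 87.5 percentile of measured genes. Klf4, which opposes KLF5 in gut epithelium, differed in the other direction, at 53.4 FPKM in wild type and 20.1 FPKM in resistant cells (log2 ratio -1.37). Of 17 KLF genes 10 were measured, with 7 ratios above 0, 1 gene at least 2-fold higher and 1 at least 2-fold lower. Klf3, a repressor of the family, stood at 55.7 against 111 FPKM, just inside the 2-fold line. The higher one, Klf10, an early gene of TGF-beta signalling, stood at 9.94 against 21.2 FPKM and lay inside the line, at 0.93, when the resistant library was scaled to the same upper quartile.

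**Figure D3:**
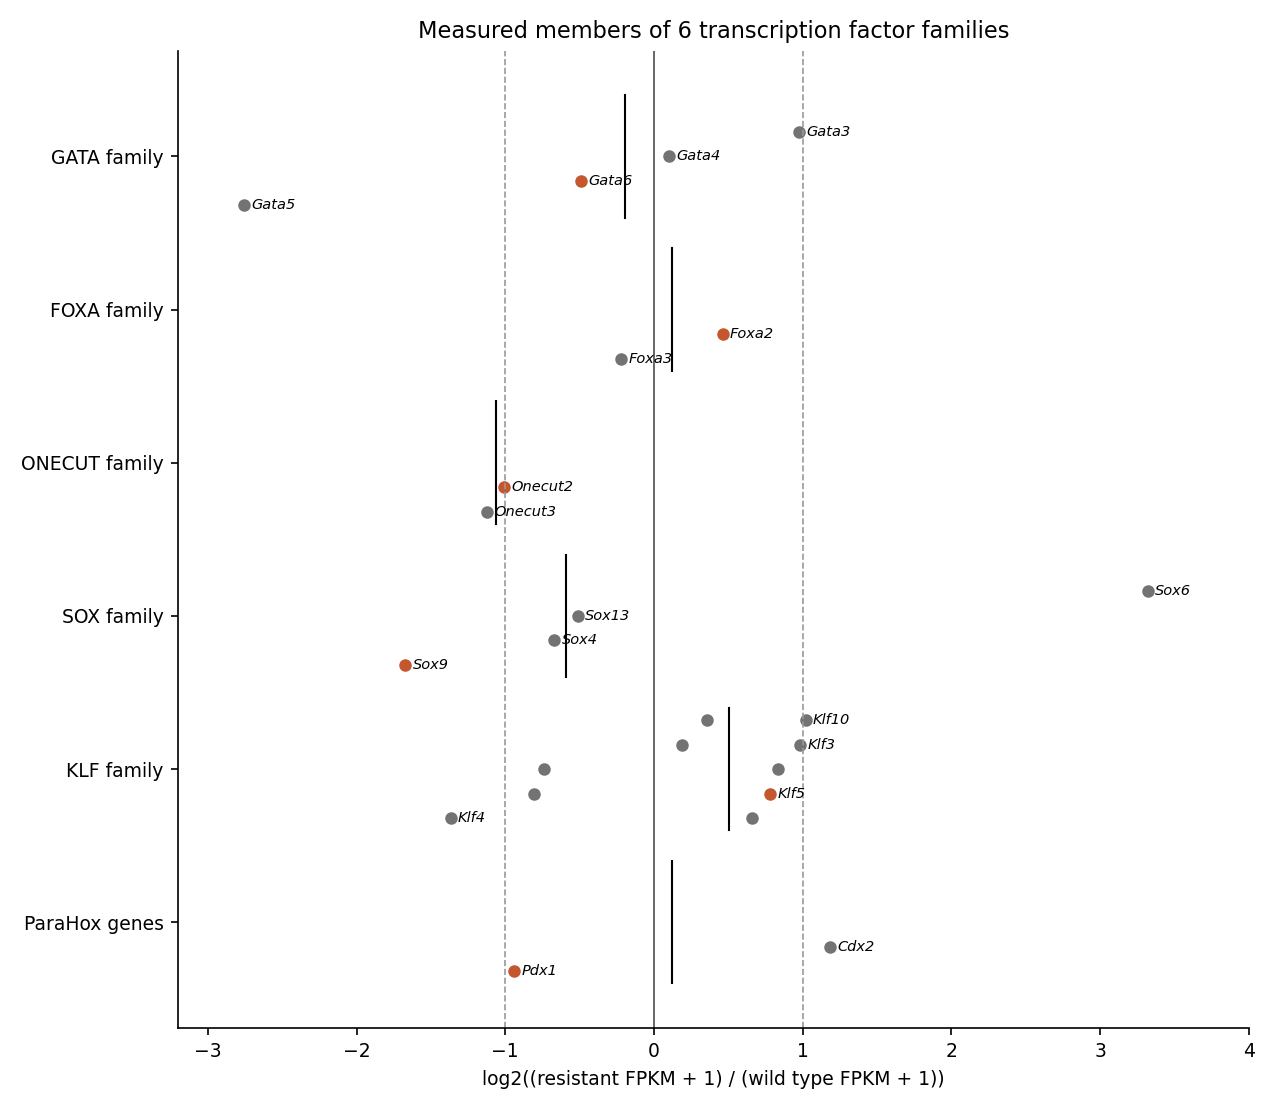
Log2 ratio of resistant to wild type (horizontal axis) for every measured gene of 6 of the families to which the factor genes belong (GATA, FOXA, ONECUT, SOX, KLF and ParaHox), 1 row of points per family, with orange for the factor genes, grey for their relatives and a black bar at the family median. Names are given for genes described in the text. Gata5 at -2.76 and Sox6 at 3.32 lie farthest out, and the GATA, FOXA, SOX, KLF and ParaHox rows each hold points on both sides of 0.

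Set among other factors of the pancreas, 10 of 16 duct and progenitor transcription factor genes were measured, 5 of them from the 8 genes above. Of the 10, 3 were at least 2-fold lower, none at least 2-fold higher, and 8 had a ratio below 0, with a median log2 ratio of -0.56. With upper-quartile scaling Pdx1 made it 4 lower. Besides Sox9 and Onecut2, the third was Hhex, a homeobox gene of foregut, liver and pancreatic ducts, at 20.7 FPKM in wild type and 2.94 FPKM in resistant cells (log2 ratio -2.46). Hes1, a Notch target that holds progenitors undifferentiated, stood at 34.8 against 22.7 FPKM. Ptf1a, Nkx6-1 and Mnx1 were listed at 0 in both libraries. Of 7 acinar factor genes, Mecom, Xbp1 and Gata4 were measured and lay within 2-fold, with Xbp1, a factor of secretory cells, at 37.4 against 47.2 FPKM. Of 16 endocrine factor genes, 13 had a listed value of 0 in both, and Irx2 alone was measured, at 1.13 FPKM in wild type and listed at 0 in resistant cells.

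The list of gut-type epithelial factors, which holds 4 of the measured factor genes themselves, had 13 of 21 genes measured. In it 2 were at least 2-fold lower, Gata5 and Klf4, 1 was at least 2-fold higher, Cdx2, and the median log2 ratio was -0.15. Factors of the basal-like and mesenchymal state were measured for 5 of 12 genes, with a median log2 ratio of 0.30. That median was 0.091 with upper-quartile scaling, where 4 genes were measured, 0.095 at a pseudocount of 5 and 0.18 at 5 FPKM or more. Its main value of 0.30 was that of Twist2, at 0.66 FPKM in wild type and 1.04 FPKM in resistant cells. Twist2 and Snai2 reached 1 FPKM in the resistant library alone, so the level filter let them in through the library where they were higher. Snai2, a repressor of epithelial genes, stood at 0.58 FPKM in wild type and 5.62 FPKM in resistant cells (log2 ratio 2.07). Hmga2, a chromatin protein of embryonic and tumour cells, stood at 17.4 against 3.93 FPKM (log2 ratio -1.90). Zeb1 stood at 15.8 and 15.0 FPKM, and Myc, the growth regulator, at 69.7 and 94.2 FPKM. The factors of this list were thus on both sides of 0 as well.

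Partners and regulators of the 8 proteins were measured for 25 of 26 genes. Of these 5 were at least 2-fold lower, 2 at least 2-fold higher and 18 within 2-fold, and the median log2 ratio was -0.48, with 17 ratios below 0. With upper-quartile scaling 6 were lower and 17 within 2-fold, since the log2 ratio of Meis2, a homeodomain partner of PDX1, went from -0.95 to -1.03. Ldb1, an adaptor that bridges enhancer complexes with GATA and LIM proteins, stood at 18.4 FPKM in wild type and 5.17 FPKM in resistant cells. Tle3, a Groucho corepressor that binds FOXA and other factors, stood at 41.5 against 17.1 FPKM. Fbxw7, the ubiquitin ligase subunit that marks KLF5 and SOX9 for breakdown, stood at 8.14 against 3.30 FPKM. Nr2f1, an orphan nuclear receptor that can bind HNF4-type sites, stood at 3.65 against 1.20 FPKM. The FOG genes, whose products bind GATA factors, differed in direction. Zfpm1 stood at 80.6 against 50.04 FPKM, and Zfpm2 at 0.12 against 1.93 FPKM. Ppargc1a, a coactivator of HNF4A, was the other higher one, at 0.12 against 1.69 FPKM, and Lmo4, a LIM-only adaptor, stood at 77.7 against 53.8 FPKM.

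Genes that mark gut, liver and duct epithelium did not share a direction. Of 28 liver- and gut-type genes, many of them known targets of HNF4A, 13 were measured, 4 at least 2-fold lower and 3 at least 2-fold higher, with a median log2 ratio of 0.30. The lower ones were plasma protein genes: Ambp, for a bikunin precursor, at 28.0 FPKM in wild type against 0.77 FPKM in resistant cells, Apoa1 at 3.35 against 0.30, Ttr at 3.18 against 0.29 and Apoc2 at 183.8 against 69.3 FPKM. Tm4sf4, a membrane protein gene of liver and gut, stood at 167 against 86.9 FPKM. Among the higher ones were Cdhr5, a cadherin gene of the intestinal brush border, at 0.31 against 18.5 FPKM, and Apob, for the lipoprotein of gut and liver, at 23.0 against 52.0 FPKM. With upper-quartile scaling Tm4sf4 passed the 2-fold line too, from -0.93 to -1.02, which made 5 lower. The median of this list was 0.74 at 5 FPKM or more and 0.11 at a pseudocount of 5. Its main value of 0.30 was that of Apoa2, at 0.99 FPKM in wild type and 1.45 FPKM in resistant cells. These were about 8 and 12 fragments, and the counting interval of the ratio, 0.570 to 4.28, included 1.

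Gut-type and mucous genes were measured for 14 of 22, with 6 at least 2-fold higher, 3 at least 2-fold lower and a median log2 ratio of 0.81. The trefoil factor genes Tff3 and Tff2, the gastrokine gene Gkn2 and the adhesion gene Ceacam1 had the highest ratios, from 1.74 to 2.90. Cathepsin E (Ctse), the gastric mucin gene Muc5ac (12.0 against 1.95 FPKM) and Vsig1, a junction gene of stomach epithelium (143 against 42.6 FPKM), had ratios from -2.51 to -1.72. Tff1 was the most abundant, at 2935 FPKM in wild type and 3923 FPKM in resistant cells. The lectin gene Lgals4 stood at 264 against 548 FPKM, and its log2 ratio went from 1.05 to 0.96 with upper-quartile scaling. Duct products were measured for 12 of 16 genes, with 1 at least 2-fold higher, Krt7, and 2 at least 2-fold lower, the water channel gene Aqp5 (62.4 against 23.1 FPKM) and the RNA-binding protein gene Bicc1 (35.5 against 16.6 FPKM). The other 9 lay within 2-fold, 8 of the 12 ratios were above 0, and the median log2 ratio was 0.47. The simple-epithelium keratin genes Krt18 and Krt19 were among the most abundant, at 1123 and 1332 FPKM in wild type and 1864 and 1738 FPKM in resistant cells.

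**Figure D4:**
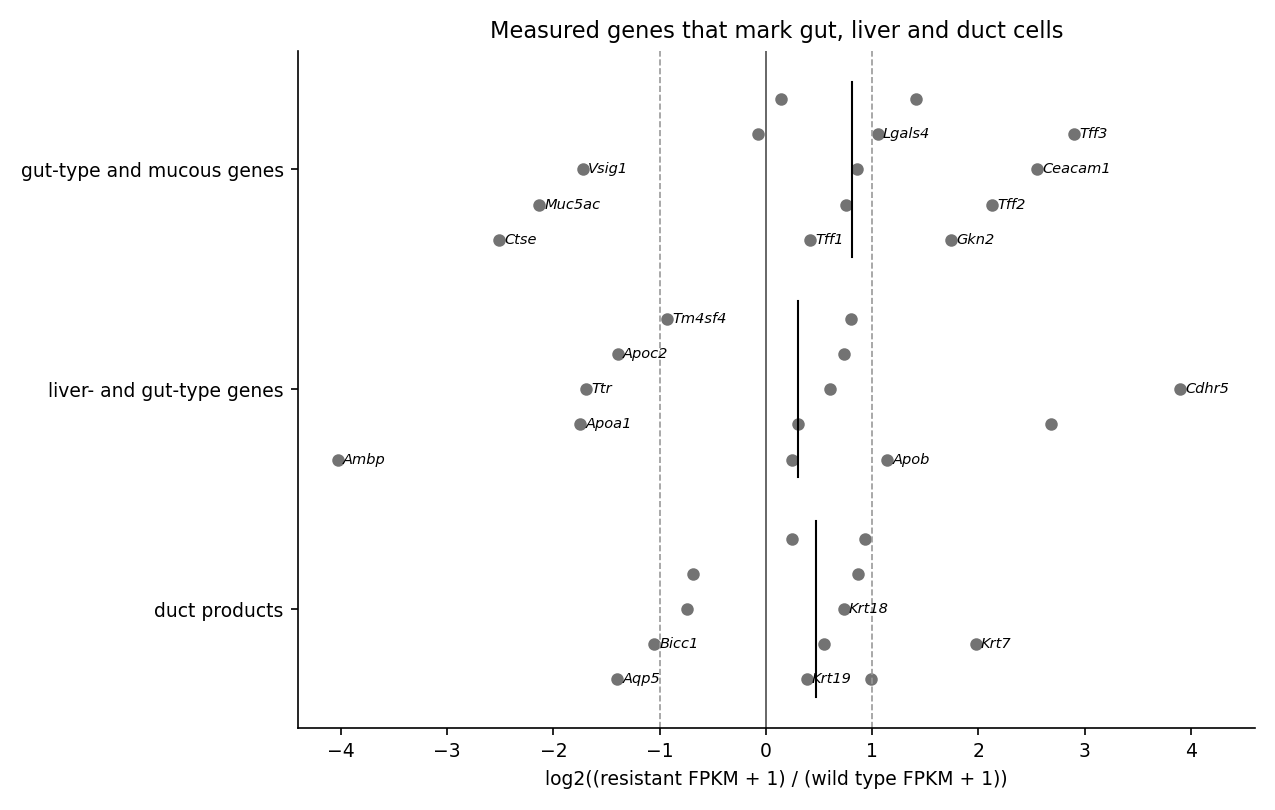
Log2 ratio of resistant to wild type (horizontal axis) of every measured gene of the gut-type and mucous list, the liver- and gut-type list and the duct product list, 1 point per gene, with names for many of the genes described in the text, and a black bar at each list's median. Every list holds genes past the dashed 2-fold lines on both sides, from Ambp at -4.03 to Cdhr5 at 3.90.

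The label of pancreatic cancer cells was checked against markers. Keratins 8, 18 and 19 were abundant in both libraries. Other duct products among the 12 of 16 measured were Spp1 at 818 FPKM in wild type and 508 FPKM in resistant cells and Aqp1 at 100 and 59.6 FPKM. Muc1 stood at 44.2 and 88.8 FPKM, Car2 at 15.6 and 29.4 FPKM and Slc4a4 at 9.83 and 19.7 FPKM. By contrast Epcam, a general epithelial marker, stood at 0.21 and 0.10 FPKM. The duct channel gene Cftr stood at 0.32 and 0.062 FPKM, and Sctr was listed at 0. Of 17 acinar products only Cela1 was measured, at 4.38 against 1.48 FPKM, and none of 15 islet products, 11 fibroblast markers or 5 endothelial markers was. Of 9 leukocyte markers 2 were measured, Cd68 at 1.17 against 5.48 FPKM and Lyz2 at 0.36 against 1.53 FPKM. The summed level of that list was 1.63 FPKM in wild type cells and 7.27 FPKM in resistant cells, Ptprc was listed at 0 in wild type cells and stood at 0.23 FPKM in resistant cells. The myeloid markers Adgre1 and Itgam stood at 0.053 and 0.0093 FPKM in wild type cells and were listed at 0 in resistant cells, Csf1r stood at 0.034 and 0.031 FPKM, and Cd3e and Cd79a were listed at 0 in both. The part of such cells in the differences above was not tested.

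The factor genes lie on 6 chromosomes, with Foxa2 and Hnf4a both on chromosome 2 and Gata6 and Onecut2 both on chromosome 18. Of 5 genes that overlap or lie within 5 kb of a factor gene and had a value above 0 in both libraries, none was higher in resistant cells. Of all measured genes 49.2% had a ratio below 0. The levels of these 5 genes were low, and no counting intervals were made for them. Plut, an antisense RNA gene that overlaps the start of Pdx1, stood at 2.27 FPKM in wild type and 1.27 FPKM in resistant cells, and the non-coding gene Gm27033, 4.9 kb past the end of Pdx1, at 1.64 and 1.24 FPKM. The antisense gene 1010001N08Rik at the start of Gata6 stood at 0.89 and 0.57 FPKM. The non-coding gene 9030622O22Rik, 2.7 kb past the end of Foxa2 on the same strand, stood at 2.43 FPKM in wild type and 0.79 FPKM in resistant cells, whereas Foxa2 itself was higher in resistant cells. R3hdml, 4.2 kb ahead of Hnf4a, stood at 1.34 and 1.25 FPKM. The sources used here do not say whether counting used strand, so fragments of overlapping antisense pairs cannot be told apart.

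Coding genes farther off gave no shared direction with the factor genes. Ttpal, 29.4 kb past Hnf4a, stood at 6.55 FPKM in wild type and 1.70 FPKM in resistant cells (log2 ratio -1.48). Fech, 51.9 kb past Onecut2, stood at 44.3 and 32.0 FPKM, and Wdr7 on the other side at 4.38 and 5.42 FPKM. Pibf1, 44.2 kb from Klf5, had a log2 ratio of -0.70, opposite to Klf5, and stood at 2.07 FPKM in resistant cells, and Tbc1d4 on its other side stood at 1.87 and 1.12 FPKM. Mipol1, 43.4 kb from Foxa1, stood at 7.18 and 12.7 FPKM, and Sec23a on its other side at 17.6 and 21.6 FPKM. Around Sox9 the nearest measured coding genes were 457.1 kb and 2256.7 kb away, Slc39a11 at 15.9 and 31.6 FPKM and Map2k6 at 14.6 and 19.6 FPKM. Mib1 and Rbbp8 beside Gata6 stood at 29.7 and 20.4 FPKM and at 18.02 and 19.1 FPKM. Xrn2 and Nxt1 beside Foxa2 stood at 40.8 and 39.4 FPKM and at 21.1 and 17.0 FPKM, and Polr1d beside Pdx1 at 53.2 and 67.2 FPKM.

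The authors' deposited table called 56 genes as different between these 2 libraries, none of the 8 among them. In the authors' deposited table Sox9 had the lowest p-value of the 8, 0.0223, with a q-value of 0.861, and the other 7 had q-values of 0.998. Those values compare 2 libraries and carry no replicate spread.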

How the data were processed

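RNA from 1 wild type and 1 gemcitabine-resistant KPC2 culture was sequenced, per the labels. The submitters' processing notes name HISAT2, StringTie and build GRCm38, without saying what each did. The authors' deposited values name no unit and were taken as FPKM, since low values of single-transcript genes of 1000 to 8000 bases fell within 0.1 of whole fragments (up to 5.5) in 93.9% of wild type and 94.4% of resistant cases, once 170 and 160 bases were taken off the length. Per the file headers, the table also has the authors' log2 fold change, test score, p-value and q-value.

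Rows of 1 symbol were summed, after 13 rows marked as failed or too deep were left out. Ratios are log2((resistant + 1)/(wild type + 1)), called at 2-fold. No test was made with 1 library per group. Intervals are exact Poisson for levels and exact binomial (Clopper-Pearson) for ratios, at 95%, for counting error only. Genes were placed with GENCODE M21 on GRCm38, and upstream sequences came from RefSeq's GRCm38.p6 table. The log2 ratios, the calls and the ratio intervals were tested on simulated data. The recovery of fragment numbers, the level intervals, the placing of neighbours and the motif search were not. The members and 22 gene lists were chosen with earlier results of these data known. All 260 list genes matched. Named are the 8 genes, up to 4 genes a list past 2-fold in each direction, the 2 most abundant of each list, and nearby genes. Gata3, Hnf4g, Onecut1, Mecom, Apoa2, Twist2, Spp1, Aqp1, Muc1, Car2, Slc4a4 and the genes at or near 0 were named after their values were seen. Some list genes are not reported here. With 2 libraries, no gene was named for a pattern like that of a member. Other pseudocounts, filters, scalings, a 4-fold line and another row per symbol were tried. Tools were Python 3.11.15 with pandas 2.3.3, numpy 2.4.6, matplotlib 3.10.9 and scipy 1.17.1.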

Additional observations from a re-analysis of the deposited data

How the results depend on the processing

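Directions of all 8 factor genes held under both pseudocounts, both rescalings and the other choice of row. At a pseudocount of 5 no factor gene was 2-fold lower (0 of 7), and the log2 ratios were -0.94 for Sox9, -0.75 for Onecut2, -0.72 for Pdx1 and -0.13 for Foxa1. At 0.1 they were -2.06 for Sox9, -1.09 for Onecut2 and -1.38 for Foxa1. Of the 7 measured factor genes, which leave out Foxa1, 3 were then at least 2-fold lower, as with upper-quartile scaling, Pdx1 being the third; with Foxa1 counted, 4 of 8 were at a pseudocount of 0.1. At a 4-fold line none was lower (0). Over all 12193 measured genes, the 2-fold line was passed upwards by 963 (7.90%) and downwards by 1021 (8.37%). The number of lower genes among all measured genes moved with the pseudocount in the same direction as that of the factor genes. A pseudocount of 5 gave 428 and 297, a 4-fold line 220 and 128, a pseudocount of 0.1 gave 1315 and 1553, and upper-quartile scaling 818 and 1183.

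Without the level filter, which adds genes at or near 0, medians were -0.62 for the 8 factor genes, 0.018 for the GATA, 0 for the KLF and 0 for the SOX family. They were 0 for acinar, 0.0095 for basal-like and -0.28 for duct factors, and 0.16, 0.069 and 0 for duct products, gut-type and mucous genes and liver-type genes. At 5 FPKM or more they were -0.49 for GATA, 0.55 for duct products and 0.74 for liver-type genes. A pseudocount of 5 gave 0.32 for KLF, -0.48 for SOX, 0.61 for gut-type and mucous genes and -0.23 for partners. Duct products stood at 0.45 with the median centred. Upper-quartile scaling moved the median of all genes by -0.08. It gave 0.37 for Foxa2, 0.69 for Klf5, -0.83 for Hnf4a and for the median of the 7 measured factor genes, -1.08 for Onecut2, 0.38 for duct products and 0.72 for gut-type and mucous genes. No paired analysis was possible because each group has 1 library. Depth limits Foxa1 most, at about 51 and 15 fragments, and leaving out a library cannot be done with 1 per group.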

Other observations

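The values below were chosen after they were seen. Nr0b2, which encodes SHP, a repressor partner of HNF4A, stood at 1.07 FPKM in the wild type library and 0.04 FPKM in the resistant one. Meis2, a homeodomain partner of PDX1, stood at 22.9 against 11.4 FPKM, while its relative Meis1 stood at 1.20 against 2.28 FPKM. Prox1, a homeobox gene of pancreatic progenitors and liver, was under the level filter in both libraries, at 0.042 FPKM in wild type, about 8 fragments, and 0.68 FPKM in resistant cells, about 120 fragments. Klf2, a family member best known from endothelium, stood at 0.94 FPKM in wild type and was listed at 0 in resistant cells. Elf3, an epithelial ETS factor, stood at 38.7 against 59.7 FPKM. With 1 library per group, none of these differences has a replicate check.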
